A study of Rattus norvegicus with 6 samples.

Results

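Tubular injury markers and simple-epithelial keratins were followed in the rat renal cortex after a chlorinated organophosphate. The set holds 10 genes (Havcr1, Lcn2, Clu, Spp1, Timp1, Sox9, Krt8, Krt18, Krt19 and Lgals3) and was chosen by name. The members are the non-control array probes whose accession leads to one of these symbols, which gave 12 of 61657 probes and 9 of 15284 named genes. No probe was named Sox9, so this transcription factor of regenerating tubules is not analysed here. Each array carried renal cortex RNA of 1 male Sprague-Dawley rat, an outbred stock bought at 5 weeks of age. 3 rats had been given tris(2-chloroethyl)phosphate (TCEP), a flame retardant, at 400 mg/kg/day for 4 weeks, and 3 had been given corn oil, its vehicle, over the same 4 weeks. All TCEP arrays shared one slide and scan time and all vehicle arrays another, so slide and treatment cannot be told apart. Each array detected 67.2% to 69.3% of its non-control probes (the scanner software's flag for signal well above background), and the small number of rats limits the precision of every comparison. All 12 member probes were well above background on all 6 arrays and none was saturated. Of the proximal tubule markers 8 of 8 were detected, with the phosphate transporter gene Slc34a1 at a log2 level of 8.25 to 8.51 on the TCEP arrays and 8.39 to 8.48 on the vehicle arrays. A level is the log2 signal of a probe minus that of its array's 75th percentile, differences are TCEP minus vehicle on that scale, and each ± is an SD over 3 arrays.

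When tubule cells are damaged they lose polarity, spread and re-enter the cell cycle, and they switch on a recognisable set of genes. Havcr1 encodes kidney injury molecule-1, a surface receptor of proximal tubule cells for dying neighbours that is shed into urine, and Lcn2 and Clu encode secreted proteins, lipocalin-2 and clusterin, that are also measured in urine. Krt8, Krt18 and Krt19 encode filament proteins of simple epithelia, in which the type II product of Krt8 pairs with the type I product of Krt18 or Krt19, and in the kidney they are normally most abundant in the distal nephron and collecting duct.

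The stretches of 250 bases before the annotated start are given for 3 members, because Krt18 held one of the 2 probes below an unadjusted p of 0.05 and because Havcr1 and Lcn2 were among the members that varied most between rats. They come from RefSeq on build GRCr8, where 6 of the 10 members have an entry, and run 5′ to 3′ on the gene's strand. Capitals mark a match to GGGCGG on either strand, the core bound by SP1-type factors.

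Krt18, chr7:135035918-135036167, + strand: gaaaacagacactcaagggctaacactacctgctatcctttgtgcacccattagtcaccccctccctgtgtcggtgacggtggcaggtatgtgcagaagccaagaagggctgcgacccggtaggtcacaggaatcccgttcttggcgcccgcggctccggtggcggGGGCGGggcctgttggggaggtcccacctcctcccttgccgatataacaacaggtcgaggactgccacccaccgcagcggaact

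Havcr1, chr10:31629528-31629777, + strand: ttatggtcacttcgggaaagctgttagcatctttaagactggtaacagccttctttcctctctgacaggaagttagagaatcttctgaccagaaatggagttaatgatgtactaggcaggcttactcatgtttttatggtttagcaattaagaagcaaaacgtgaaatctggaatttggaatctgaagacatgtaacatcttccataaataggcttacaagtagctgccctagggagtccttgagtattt

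Lcn2, chr3:36081781-36082030, - strand: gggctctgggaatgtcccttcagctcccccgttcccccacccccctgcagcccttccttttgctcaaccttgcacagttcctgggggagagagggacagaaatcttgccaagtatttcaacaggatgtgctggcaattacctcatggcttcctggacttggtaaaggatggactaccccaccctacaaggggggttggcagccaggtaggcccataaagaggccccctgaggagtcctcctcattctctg

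The Krt18 stretch held 1 match to GGGCGG, beginning 84 bases before the start, as 30.5% of 33469 RefSeq stretches of this length hold at least 1. The same search for TATAAA, TTCNNNGAA (the STAT core) and TGANTCA (the AP-1 core) on both strands gave no match in these 3 stretches, against 12.9%, 7.67% and 6.34% of all stretches. The stretch of Krt18 was 62.0% G and C, that of Lcn2 57.2% and that of Havcr1 39.2%, around a median of 51.2% over all stretches. These are descriptions of the letters in these windows alone.

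None of the 12 probes passed the threshold, and the classical injury markers varied more between rats of one group than between the groups. That is not particular to them. Over all tested probes the median within-group SD was 0.14 and the median absolute difference 0.10. Of 41040 tested probes, 0 (0.0%) passed a Benjamini-Hochberg adjusted p of 0.05 in limma, where the lowest adjusted p was 0.383. At an unadjusted p under 0.05 there were 2 of 12 member probes, one of Krt18 and that of Lgals3, against 8.32% of all tested probes. Both were lower with TCEP, a direction that 4.83% of the tested probes shared at that p. For the same 2 of 12 probes the groups had no overlap, against 15.3% of all tested probes. Across the 12 probes 5 were higher and 7 lower with TCEP, with a median difference of -0.10, and 48.5% of all tested probes were higher, with a median difference of -0.005.

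**Figure D1:**
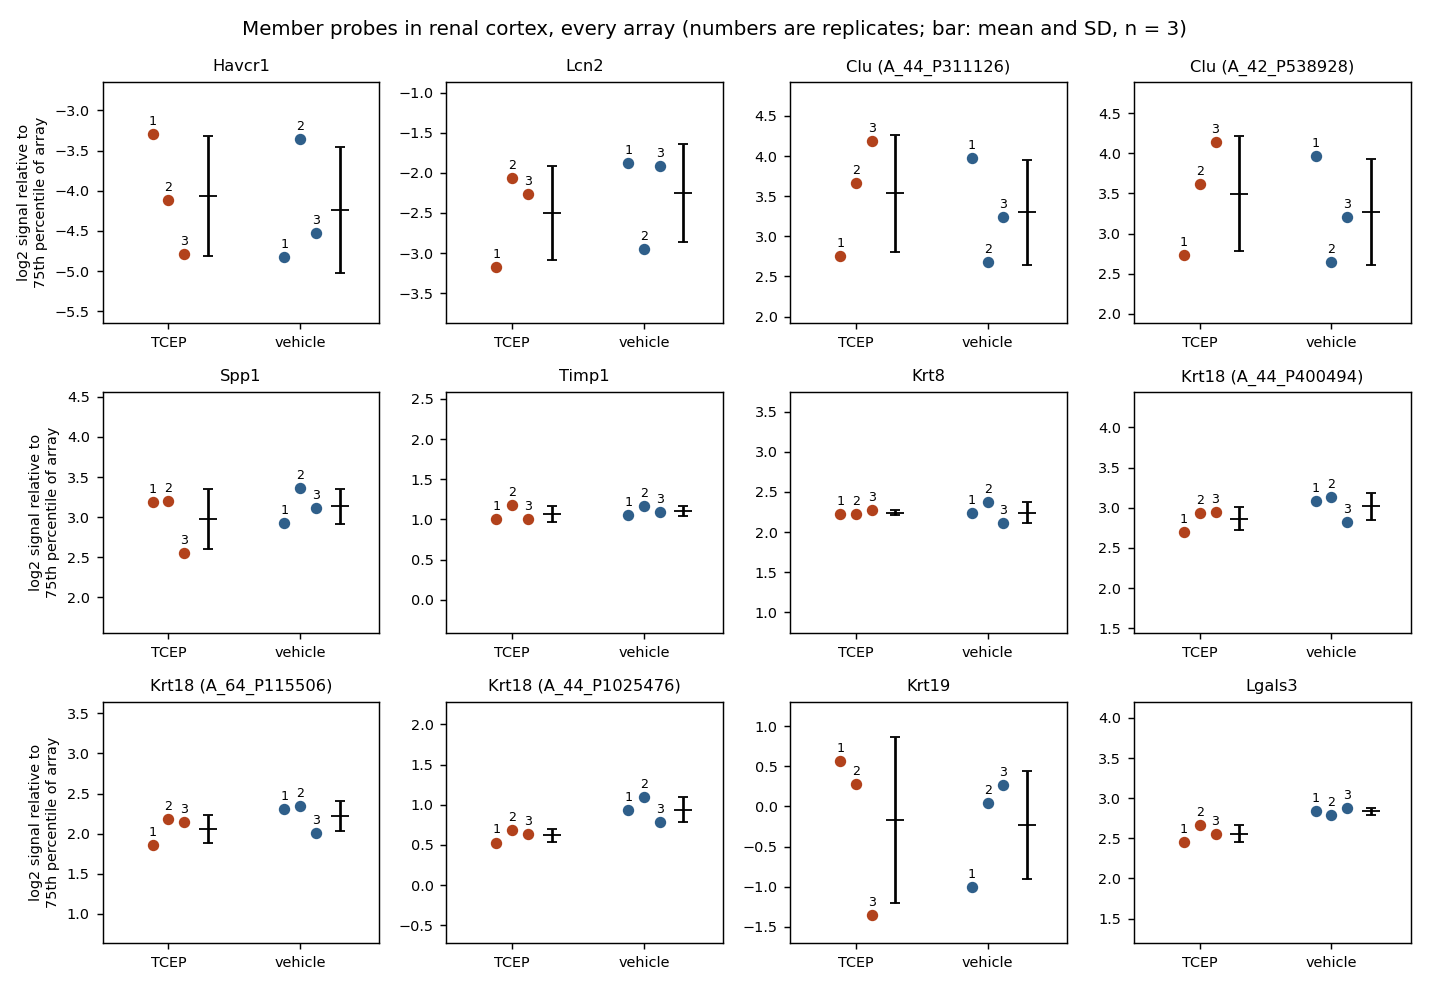
Level (log2 signal minus that of the array's 75th percentile) of each member probe (vertical axis, the same span in every panel), with the 3 TCEP arrays left and the 3 vehicle arrays right. Numbers are replicates, and bars give mean and SD (n = 3). Lgals3 and the Krt18 probe A_44_P1025476 are the 2 panels in which the groups do not overlap.

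Lgals3 encodes galectin-3, a sugar-binding protein made by macrophages and by cells of the distal nephron and collecting duct, and it had the smallest p of the members. Its probe, A_43_P12698, had levels of 2.46, 2.67 and 2.55 on TCEP arrays 1 to 3, and of 2.84, 2.79 and 2.88 on vehicle arrays 1 to 3. Every TCEP array was thus below every vehicle array, and both groups were tight. The difference was -0.28 (SE 0.08, 95% confidence interval -0.48 to -0.08, unadjusted p = 0.013, adjusted p = 0.552), so that TCEP cortex stood at 0.824 of the vehicle level. In bulk RNA, fewer cells of a type and less RNA per cell cannot be told apart. Markers of intercalated cells, the acid-base cells of the distal nephron, ran the same way. Their mean, relative to each gene's own mean over the 6 arrays, was -0.16 to -0.12 with TCEP and 0.11 to 0.19 with vehicle, with 6 of 7 tested markers lower. Macrophage markers were lower in 8 of 9, but their mean overlapped, at -0.15 to -0.06 on the TCEP arrays and -0.17 to 0.25 on the vehicle arrays. Principal cell markers of the collecting duct were lower in 7 of 7. Their mean overlapped too, at -0.18 to -0.04 on the TCEP arrays and -0.21 to 0.26 on the vehicle arrays. Over all genes, 52.5% were higher with TCEP. The part of any of these cell types in the Lgals3 difference was not tested.

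Krt18, the type I partner of keratin 8, is read by 3 probes of one transcript, and all 3 were lower in TCEP cortex by different amounts. The brightest, A_44_P400494, had levels of 2.70, 2.94 and 2.95 on the TCEP arrays and of 3.09, 3.14 and 2.82 on the vehicle arrays. Vehicle replicate 3 lay within the TCEP range there, and the difference was -0.15 (SE 0.12, unadjusted p = 0.244). The probe A_64_P115506 had 1.86, 2.18 and 2.14 against 2.31, 2.34 and 2.01, with the same overlap and a difference of -0.16 (SE 0.13, unadjusted p = 0.267). The dimmest, A_44_P1025476, had 0.53, 0.69 and 0.64 on the TCEP arrays and 0.93, 1.1 and 0.79 on the vehicle arrays. On this probe the groups stood apart, with a difference of -0.32 (SE 0.10, 95% confidence interval -0.57 to -0.07, unadjusted p = 0.0193, adjusted p = 0.572). The mean over the 3 probes differed by -0.21 (unadjusted p = 0.11). The Krt18 call at an unadjusted p under 0.05 thus belongs to 1 probe of 3. Without TCEP replicate 1 its p was 0.0595, and without vehicle replicate 2 it was 0.0518.

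Krt8, the type II partner, was level. Its probe had 2.22, 2.23 and 2.28 on the TCEP arrays and 2.24, 2.38 and 2.11 on the vehicle arrays, with vehicle replicates 2 and 3 as the highest and lowest of the 6. The means were 2.24 ± 0.04 with TCEP and 2.24 ± 0.14 with vehicle, and the 95% confidence interval of the difference, -0.22 to 0.22, corresponds to 0.861 to 1.16 times the vehicle level. The difference between the Krt8 and Krt18 responses was not tested. Krt19, a smaller type I keratin of ducts and of parietal and repairing epithelium, had the widest spread of the members. Its levels were 0.56, 0.28 and -1.35 with TCEP and -1.0, 0.04 and 0.27 with vehicle, so that 1 rat in each group was low and the others were alike. Its difference of 0.06 had a confidence interval of -1.37 to 1.48, and it was -0.31 without TCEP replicate 1, -0.17 without TCEP replicate 2 and -0.33 without vehicle replicate 1.

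**Figure D2:**
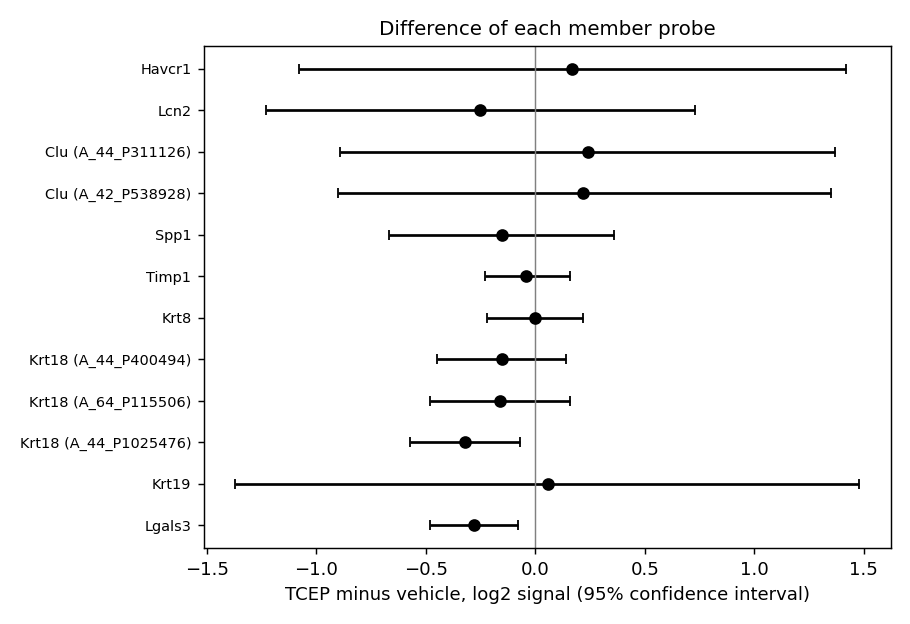
TCEP minus vehicle difference of each member probe in log2 signal (horizontal axis) with its 95% confidence interval from limma. The intervals of Lgals3 (-0.48 to -0.08) and of the Krt18 probe A_44_P1025476 (-0.57 to -0.07) lie below 0, and those of Havcr1, Lcn2, Clu and Krt19 span the most.

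Havcr1, the proximal tubule marker most used in rat toxicity studies, was dim. Its processed intensity was 110.0, 56.4 and 34.9 units on the TCEP arrays and 34.0, 95.2 and 42.8 units on the vehicle arrays. TCEP replicate 1 and vehicle replicate 2 were high and the remaining rats low, irrespective of treatment. The levels averaged -4.06 ± 0.75 with TCEP and -4.24 ± 0.78 with vehicle, a difference of 0.17 (SE 0.51, adjusted p = 0.951). The confidence interval ran from 0.474 to 2.68 times the vehicle level, so these arrays cannot show whether Havcr1 differed by less than that. Without TCEP replicate 1 the difference was -0.21, and without vehicle replicate 1 it was -0.12.

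Lcn2, an iron-carrier-binding protein of injured distal tubules and of neutrophil granules, had levels of -3.17, -2.07 and -2.26 on the TCEP arrays and -1.88, -2.95 and -1.91 on the vehicle arrays. The 2 rats that were high for Havcr1 were the low ones here. The difference was -0.25 (SE 0.40, adjusted p = 0.894), and without TCEP replicate 1 it was 0.08. Neutrophil markers did not share this order. The mean of the 5 tested markers was highest on vehicle replicate 2, at 1.32, where Lcn2 was low. It was lowest on vehicle replicate 3, at -0.57, where Lcn2 was high. On TCEP replicate 1, where Lcn2 was lowest, the neutrophil mean was low as well, at -0.52.

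Clu, a secreted chaperone, was read by 2 probes that matched closely. The brighter, A_44_P311126, had 2.75, 3.67 and 4.19 on the TCEP arrays and 3.98, 2.68 and 3.24 on the vehicle arrays. The other, A_42_P538928, had 2.73, 3.62 and 4.14 against 3.96, 2.64 and 3.21. On both probes TCEP replicate 1 and vehicle replicate 2 were again the lowest of their groups, and the groups overlapped almost fully. The differences were 0.24 (SE 0.46, adjusted p = 0.918) and 0.22 (SE 0.46, adjusted p = 0.922). Without vehicle replicate 2 they were -0.07 and -0.09, and without TCEP replicate 3 they were -0.09 and -0.10.

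Spp1 encodes osteopontin, a secreted ligand of integrins and CD44 made along the nephron. Its levels were 3.19, 3.20 and 2.55 on the TCEP arrays and 2.93, 3.36 and 3.11 on the vehicle arrays. The low TCEP replicate 3 set the group mean: the difference was -0.15 (SE 0.21, adjusted p = 0.872) and became 0.06 without that array. Timp1, an inhibitor of matrix metalloproteinases that rises in fibrosing kidney, was the steadiest member. It had 1.01, 1.18 and 1.01 on the TCEP arrays and 1.05, 1.17 and 1.09 on the vehicle arrays, a difference of -0.04 (95% confidence interval -0.23 to 0.16) that corresponds to 0.852 to 1.11 times the vehicle level. From the median spot signals with normexp background correction, in place of the processed signal, the Timp1 difference was 0.16 (unadjusted p = 0.0636).

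The members fell into a steady and a variable group by their spread between rats. The pooled within-group SD was 0.08 for Timp1 and Lgals3, 0.10 for Krt8 and 0.12 to 0.18 for the Krt18 probes, around a median of 0.14 over all tested probes. It was 0.30 for Spp1, 0.60 for Lcn2, 0.69 for each Clu probe, 0.77 for Havcr1 and 0.88 for Krt19. At 0.60 and above it exceeded the SD of 96.6% to 98.9% of the tested probes. Those probes were of every brightness, whereas Havcr1 and Lcn2 were dim. With 1 array per rat, variation between rats and measurement noise cannot be told apart. For Krt19 the highest and lowest rats differed 3.78-fold, and both had received TCEP. For Havcr1 the span was 2.9-fold and for Clu 2.85-fold on the brighter probe, in each case between rats of different groups whose ranges overlapped.

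**Figure D3:**
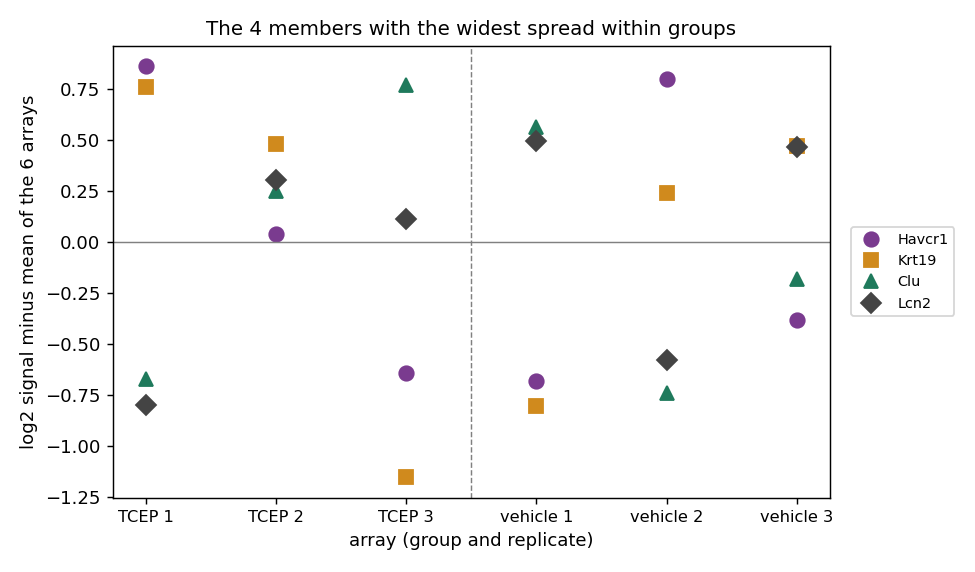
Log2 signal of Havcr1, Krt19, Clu (probe A_44_P311126) and Lcn2 on each array, minus its mean over the 6 arrays (vertical axis), with TCEP arrays left of the dashed line and vehicle arrays right of it. Havcr1 is high, and Clu and Lcn2 are low, on TCEP replicate 1 and vehicle replicate 2.

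Havcr1 and Clu, both read as injury markers, ran in opposite directions across the 6 rats, with a Pearson r of -0.90 (exact permutation p = 0.0444) and a Spearman rho of -0.83 (exact permutation p = 0.0583). Over the family of 6 relations the adjusted p were 0.266 and 0.175, so the relation failed the correction. Without TCEP replicate 1 and vehicle replicate 2, the arrays farthest from the Havcr1 median, r was -0.52. Leaving out the most extreme arrays also narrows the range of Havcr1, so this value cannot show whether the relation rests on those rats. Krt8 and Krt18 ranked the rats alike (rho 0.89, exact permutation p = 0.0333, adjusted 0.175; r 0.68, exact permutation p = 0.131, adjusted 0.393; r 0.40 without vehicle replicates 2 and 3). Krt19 had an r of -0.28 with Krt8 and of -0.50 with Krt18 (exact permutation p = 0.561 and 0.258, adjusted 0.581 and 0.483; rho -0.66 and -0.71, p = 0.175 and 0.136, both adjusted 0.263; r -0.83 and -0.64 without the 2 arrays farthest from the Krt8 and Krt18 medians). Lcn2 with the neutrophil mean gave r of -0.33 (exact permutation p = 0.581, adjusted 0.581; rho -0.09, p = 0.919, adjusted 0.919; r -0.11 without TCEP replicate 1 and vehicle replicate 2). Lgals3 with the macrophage mean gave r of 0.52 (exact permutation p = 0.322, adjusted 0.483; rho 0.26, p = 0.658, adjusted 0.79; r 0.29 without TCEP replicates 1 and 3). All tests were two-sided. A slide holds the 3 arrays of 1 group, so values within slides were had by centring both measures on their group means, a setting added after the data were seen. Of the 36 reorderings within groups the smallest exact permutation p is 0.0556, so no relation can pass 0.05 there. Havcr1 with Clu then had r of -0.95 and Krt8 with Krt18 0.80 (exact permutation p = 0.0556 and adjusted 0.167 for each). Krt19 had -0.28 with Krt8 and -0.56 with Krt18 (exact permutation p = 0.667 and 0.167, adjusted 0.8 and 0.333), and Lcn2 with the neutrophil mean had -0.48 (exact permutation p = 0.667, adjusted 0.8). Lgals3 with the macrophage mean had -0.01 (exact permutation p = 1.0, adjusted 1.0). With 3 arrays a slide, this value cannot show whether Lgals3 and the macrophage mean are related within slides.

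On TCEP replicate 1, where Havcr1 and Krt19 were highest and Lcn2 lowest, the mean of the 8 proximal tubule markers was the lowest of the 6, at -0.18 against 0.06 and 0.14 on the other TCEP arrays and -0.05 to 0.01 on the vehicle arrays. The collecting duct principal cell mean was low on both TCEP replicate 1 (-0.18) and vehicle replicate 2 (-0.21), the rats with the lowest Lcn2 and Clu, while the other TCEP arrays had -0.06 and -0.04 and the other vehicle arrays 0.21 and 0.26. The urothelial markers, of which 4 of 9 were detected, had means of -0.09 and -0.19 on those same 2 arrays and of -0.03 to 0.19 on the rest. These 4 genes did not move together. Upk1b was low on the 2 arrays, at -3.63 and -3.66, against -2.70 to -1.88 on the rest. Upk1a was highest there, at -2.28 and -2.82, against -3.37 to -3.03. Krt5 lay within the range of the rest on both, and Tp63 was lowest on TCEP replicate 1 only. The part of these cell types in the spread of the injury markers was not tested.

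Transcripts with the array pattern most like that of 3 members were sought among 11810 genes, each by its brightest tested probe. Havcr1 was followed most closely by Wnt7a (r 0.99), Sit1 (r 0.99) and Pard6a (r 0.98), Spp1 by Dhx58 (r 0.99), Wdr13 (r 0.98) and Pcsk7 (r 0.97), and Krt8 by Mnat1, Grb2 and Rpl34 (each r 0.99). Pearson r does not compare the size of changes, and of these genes only Sit1 spanned more than its member. Havcr1 ran from -4.83 to -3.29 over the arrays, Sit1 from -3.57 to -1.67 and Pard6a from -1.10 to -0.81. Spp1 ran from 2.55 to 3.36 and Pcsk7 from -1.09 to -0.92. Krt8 ran from 2.11 to 2.38 and Grb2 from 2.30 to 2.45. These are descriptions over 6 arrays that share their normalisation. With so many genes and so few rats, 19, 7 and 24 genes had an r above 0.95 to Havcr1, Spp1 and Krt8.

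The wider injury programme was also without a called gene. Beside 7.71% of the 11810 genes, 1 of 28 tested genes of tubular injury and repair had an unadjusted p under 0.05, and 9 of the 28 were higher and 19 lower (median -0.12, against 0.008 over all genes). That gene was Gdf15, a stress-induced cytokine of the TGF-beta family. Its levels were 0.45, -0.51 and -0.13 with TCEP and -1.42, -0.56 and -0.68 with vehicle. Every TCEP array was above every vehicle array, by a mean of 0.82 (SE 0.32, unadjusted p = 0.0422, adjusted p = 0.591). The groups had no overlap for 2 of the 28 genes, against 15.3% of all tested probes. The adhesion molecule gene Vcam1, a marker of maladaptive repair, differed by 0.01 (SE 0.15), and Vim, the mesenchymal filament gene vimentin, by -0.19 (SE 0.09). Of 20 tested transcription regulators linked to tubular injury, 7 were higher and 13 lower (median -0.13), and 1 had an unadjusted p under 0.05, against 7.71% of all genes. This was Atf3, an early stress-response factor, at -0.97, -1.18 and -1.52 with TCEP and -0.41, -0.78 and -0.69 with vehicle, a difference of -0.60 (SE 0.17, adjusted p = 0.552).

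Among 15 tested genes of other urinary kidney biomarkers, 6 were higher and 9 lower (median -0.15). Of the 15, 2 were below an unadjusted p of 0.05, against 7.71% of all genes. Timp2, a metalloproteinase inhibitor used with Igfbp7 as a urinary marker of cell stress, had 3.63, 3.67 and 3.65 on the TCEP arrays and 4.0, 3.86 and 3.80 on the vehicle arrays, a difference of -0.24 (SE 0.08, adjusted p = 0.572). Calb1, calbindin of the distal tubule, differed by -0.58 (SE 0.21, adjusted p = 0.574). In both genes all TCEP arrays were below all vehicle arrays, and so they were in B2m (limma unadjusted p = 0.13). The groups thus had no overlap for 3 of the 15 genes, against 15.3% of all tested probes.

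Timp1's relatives and their target enzymes held 4 genes of 12 at an unadjusted p under 0.05, against 7.71% of all genes, 3 of them lower with TCEP, and the median of the 12 was -0.09. Timp3, the matrix-bound inhibitor, had 1.20, 1.40 and 1.36 with TCEP against 1.63, 1.52 and 1.70 with vehicle, a difference of -0.30 (SE 0.09, adjusted p = 0.554). Mmp15, a membrane-type metalloproteinase, differed by -0.21 (SE 0.07, adjusted p = 0.572), and Timp2, already given, was the other lower gene. Mmp12, the macrophage elastase, was dim and higher by 0.70 (SE 0.27, adjusted p = 0.591), with its TCEP and vehicle arrays overlapping.

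The other keratins and filament genes gave 5 higher and 11 lower of 16 tested, with a median of -0.06 and 0 at an unadjusted p under 0.05 (0 by adjusted p in limma, smallest unadjusted p = 0.0525). Krt7, a type II keratin of ducts, differed by -0.02 (SE 0.14). Galectins beside Lgals3 gave 5 higher and 2 lower of 7 (median 0.07), again with 0 at an unadjusted p under 0.05 (0 by adjusted p in limma, smallest unadjusted p = 0.117). Receptors and partners of the member proteins gave 4 higher and 6 lower of 10 (median -0.10), and 1 was below that p, against 7.71% of all genes. Slc22a17, the lipocalin-2 receptor, had 3.40, 3.47 and 3.29 with TCEP and 3.10, 3.16 and 3.25 with vehicle, a difference of 0.22 (SE 0.08, adjusted p = 0.576), and each TCEP array exceeded each vehicle array. The groups had no overlap for 2 of these 10 genes, against 15.3% of all tested probes. Cd44, which binds osteopontin and marks activated epithelium, differed by -0.14 (SE 0.17), and Lrp2, the megalin that takes up lipocalin-2 from the filtrate, by 0.04 (SE 0.11).

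**Figure D4:**
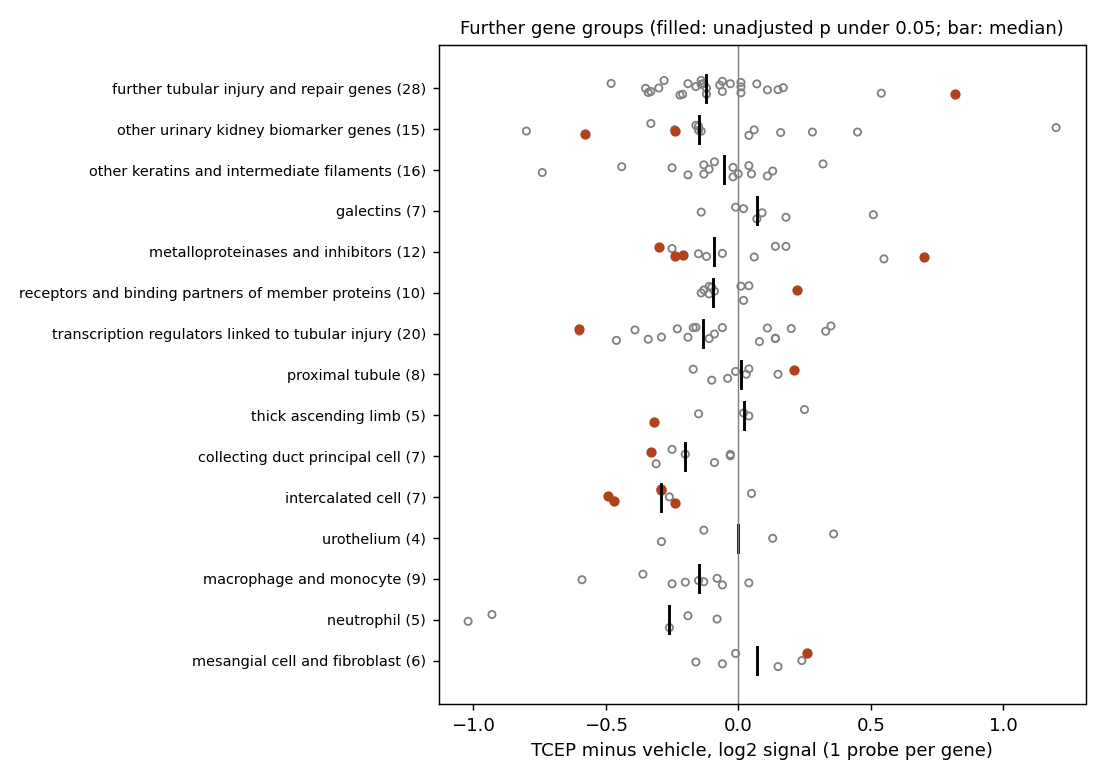
TCEP minus vehicle difference in log2 signal (horizontal axis) of each tested gene in 15 groups, 1 probe a gene, with the number tested in brackets. Filled points have an unadjusted p under 0.05, none passes the adjusted threshold, and bars are medians. Intercalated cell markers have 5 of 7 filled points, all lower, with a median of -0.29, where 7.71% of all genes have such a p.

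Among markers of the cells that could carry the members, 5 of 7 intercalated cell genes were below an unadjusted p of 0.05, against 7.71% of all genes, and all 5 were lower, among them the proton pump subunit Atp6v1b1 (-0.29, SE 0.07, adjusted p = 0.551) and the anion exchanger Slc26a4 (-0.49, SE 0.14, adjusted p = 0.551). Of the principal cell genes 7 of 7 were lower (median -0.20), and the vasopressin receptor gene Avpr2 (-0.33, SE 0.13, adjusted p = 0.597) was the 1 below that p. The thick ascending limb list had a median of 0.02 with the potassium channel gene Kcnj1 at -0.32 (SE 0.09, adjusted p = 0.552), and the proximal tubule list a median of 0.01 with the water channel gene Aqp1 at 0.21 (SE 0.08, adjusted p = 0.586). Mesangial and fibroblast markers had a median of 0.07 with the growth factor receptor gene Pdgfra at 0.26 (SE 0.08, adjusted p = 0.562), and neutrophil markers a median of -0.26 with 0 of 5 below that p (0 by adjusted p in limma, smallest unadjusted p = 0.0903). Macrophage markers had a median of -0.15 with 0 of 9 below it (0 by adjusted p in limma, smallest unadjusted p = 0.117), and urothelial markers a median of 0.00 with 0 of 4 (0 by adjusted p in limma, smallest unadjusted p = 0.152).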

How the data were processed

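Per the file headers, the authors' 1-colour scanner files came from Agilent Feature Extraction 10.7.1.1 (10.7 in the submitters' processing notes) on an array design annotated on rn4. In the deposited files the processed signal is a linear intensity with background removed and no scaling between arrays, and median spot and background signals are intensities too. Flags deposited for each spot (well above background, saturated, outlier) are other values of 0 or 1. The deposited series matrix holds that same signal over 1 constant for each array, within 0.146% of its 75th percentile, on a linear scale without centring (column medians 0.104 to 0.107).

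From 61657 non-control probes, log2 processed signal was centred on the 75th percentile of its array, and a probe was tested if flagged as above background throughout either group, leaving out 12 with an outlier flag. Accessions without versions were named through a RefSeq gene table (GRCr8, names and promoters only), which matched 27460 probes. limma 3.58.1 in R 4.3.3 (lmFit, eBayes, two-sided, group as sole term, 6.05 degrees of freedom) was run with Benjamini-Hochberg adjustment over 41040 probes and was tested on simulated data. In gene groups a gene was read by its brightest tested probe, and up to 4 genes a group (2 a marker list) with the smallest unadjusted p under 0.05 were named, with Slc34a1, Vcam1, Vim, Krt7, Cd44 and Lrp2 added after their values were seen. The series' design text calls the rats biological replicates. Members, groups and relations were chosen with earlier results of these data known. Alternatives covered normexp background correction of the median spot signals, scaling, filters, variance model, array weights, replicate block and leaving out arrays. No pair of arrays held identical values. Further tools were Python 3.11.15, numpy 2.4.6, pandas 2.3.3, scipy 1.17.1 and matplotlib 3.10.9.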

Additional observations from a re-analysis of the deposited data

How the results depend on the processing

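No probe passed the adjusted threshold in limma with all arrays (3416 were at an unadjusted p under 0.05), and leaving out 1 array gave 0 to 3 (1 without TCEP replicate 1, 1 without vehicle replicate 1 and 3 without vehicle replicate 2). The count at an unadjusted p under 0.05 was 984 with 1 probe per gene, where fewer were tested, and 5321 with normexp on median spot signals, which changes the signal and the background correction together. Of the 3416 probes at that p with all arrays and scaling, 41.9% were higher with TCEP, against 62.5% of those without scaling between arrays. Member probes at that p numbered 1 with 1 probe per gene, 0 without TCEP replicate 1 and vehicle replicate 2 together (chosen after seeing the data) and 1 to 2 without 1 array. Probes whose groups did not overlap numbered 9633 to 11436 without 1 array, as fewer arrays must be separated, and member probes higher with TCEP 2 to 4, against 5. Small differences changed sign. That of Timp1 was 0.16 with normexp on those medians, 0.00 without scaling, 0.01 with array weights and 0.02 without both arrays. That of Krt8 was -0.02 with normexp on those medians and with quantile normalisation and 0.00 with array weights, and that of Krt19 was -0.17 without both arrays. Without 1 array the differences ran from -0.21 to 0.62 for Havcr1, -0.60 to 0.08 for Lcn2, -0.09 to 0.63 and -0.10 to 0.61 for the Clu probes, -0.27 to 0.06 for Spp1, -0.07 to 0.07 for Krt8 and -0.33 to 0.65 for Krt19. The cause was not tested. Lgals3 was lower in every setting run (-0.34 to -0.23), with an unadjusted p of 0.0505 without both arrays. Same-numbered arrays had deviation correlations of -0.0535, -0.0596 and 0.155, and arrays with unlike numbers -0.223 to 0.255. These values gave no sign that the numbers pair the rats, but with 3 arrays a group they cannot exclude it. With a replicate block 3011 probes were at an unadjusted p under 0.05 and 0 passed the adjusted threshold. A slide block could not be fitted. Centred on group means, the r of Lgals3 with the macrophage mean was -0.01. Signal over background removed no member probe, as all 12 were well above it on all 6 arrays.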

Other observations

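Some genes outside the set also had rats that stood apart, and 3 are named here after their values were seen. Rbp4, the plasma retinol carrier, had log2 levels of 6.0, 0.11 and 0.18 on the TCEP arrays and 2.30, 3.26 and -0.61 on the vehicle arrays (difference 0.45, SE 1.85, adjusted p = 0.966 in limma). Fabp1, a fatty acid carrier, had -1.35, -4.55 and -3.46 on the TCEP arrays and -4.80, -4.09 and -4.08 on the vehicle arrays (difference 1.20, SE 0.79, adjusted p = 0.723 in limma), so TCEP replicate 1 was the highest for both. S100a9, a neutrophil granule gene, had -2.17, -1.21 and -2.05 on the TCEP arrays and -1.09, 0.78 and -2.08 on the vehicle arrays, where vehicle replicate 2 was highest.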
